A study of Drosophila melanogaster with 5 samples.

Results

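RNA was sequenced in 5 libraries, and each came from 1 cell that carried GFP and was taken from the pars intercerebralis (PI). The PI is a cluster of peptide-secreting neurons at the top of the Drosophila brain. The genes described here are 38 heat shock, chaperone, stress and activity-induced genes, chosen by name. Their FlyBase symbols were matched to the identifiers of the count tables, and 37 of the 38 were found among 17453 gene identifiers. Pdi, a disulfide isomerase of the endoplasmic reticulum (ER), could not be matched and was not analysed here. Of the 37 members, 12 were grouped as inducible heat shock genes, 6 as constitutive chaperones and 8 as early response genes. The other 11 belong to neither side of the comparison of inducible with constitutive genes.

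The study kept 4 of the libraries, called cells 1 to 4 here, and discarded 1, called cell D. It gave indiscriminate mapping of the reads as the reason. Reads that mapped to several places numbered 317953 in cell D and 674719 to 2122925 in the kept cells. Cell D also had the most genes with at least 1 read, 8543. The flies had either of 2 genotypes, with kurs58-GAL4 driving UAS-mCD8::GFP (kurs58-GAL4/Dilp2mCherry; UAS-mCD8::GFP/+) or with c767-GAL4 driving UAS-nlsGFP (UAS-nlsGFP/Dilp2mCherry; c767-GAL4/+). Every fly carried the Dilp2mCherry reporter, which was used to find the PI, and a GAL4 driver with a GFP reporter. Both drivers also label cells outside the PI, and the driver of each cell and the age of the flies were not given in the sources used here. For collection, each fly was put under CO2 for a short time and fixed in place with glue, and its head was opened under HL3.1 saline. A GFP cell beside the mCherry cells was then drawn into a glass micropipette by suction. The labels give each cell its own animal number, while the series record speaks of 4 animals. No cell was collected with less handling or after a stimulus, so RNA present before the dissection and RNA made during it cannot be told apart. With a single condition no differential test could be fitted, and all values below are descriptions of single libraries.

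Heat shock proteins are chaperones that hold or refold unfolded proteins. Some are made at all times, while others are switched on by heat shock factor (Hsf) when unfolded proteins accumulate, and the strict heat shock genes have very little RNA in unstressed fly cells. The ER has its own chaperones and sensors, which form the unfolded protein response and are prominent in secretory cells. A separate set of transcription factor genes, the immediate-early or early response genes, is switched on within minutes by injury, JNK signaling or neuronal firing.

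Reads assigned to genes ranged from 3451331 to 4441952 in the kept cells and numbered 4913151 in cell D. Values are RPM, reads per 1000000 reads assigned to genes in that library, or log2(RPM + 1), and a gene was counted as expressed at 1 RPM or more. A limit of 3 reads was taken for a gene with 0 reads, which is 0.675 to 0.869 RPM in the kept cells and 0.611 RPM in cell D. Intervals are exact Poisson 95% intervals of the reads. For 0 reads they reach higher than this limit, to 0.83 to 1.07 RPM in the kept cells and 0.75 RPM in cell D. They cover counting error only, since amplified reads are not independent molecules. The label of PI cell was checked against markers. All 8 matched neuronal markers were at 1 RPM or more in cells 2 and 4, with 5 of 8 in cell 1 and 7 of 8 in cell 3, and their summed level was 302 to 2787 RPM in the kept cells and 12654 RPM in cell D. The defining marker elav had 1, 423, 88 and 361 reads in cells 1 to 4 and 3316 reads in cell D. Fat body markers summed to 9870 to 45336 RPM in the kept cells and 1008 RPM in cell D, with 6, 6, 4 and 6 of 8 at 1 RPM in cells 1 to 4 and 5 of 8 in cell D. Photoreceptor markers summed to 1986 to 48005 RPM in the kept cells and 1329 RPM in cell D, with 11, 10, 9 and 11 of 11 at 1 RPM in cells 1 to 4 and 9 of 11 in cell D. Glial markers summed to 754 to 5004 RPM in the kept cells and 1976 RPM in cell D, and hemocyte and muscle markers to 238 to 909.5 RPM in the kept cells and 43.1 RPM in cell D. The 5 PI peptide genes summed to 113, 163, 134120 and 173 RPM in cells 1 to 4 and 671 RPM in cell D. Dh44 dominated cell 3, with 538167 reads, and was at 111 to 171 RPM in cells 1, 2 and 4. SIFa had 0 reads in cells 1, 2 and 4, 80 in cell 3 and 489 in cell D. The study aimed to avoid cells with insulin-like peptides. Of these, Ilp2 had 1.02, 13.3, 2006 and 0.23 RPM in cells 1 to 4 and 156 RPM in cell D. Where RNA of these marker lists differs between cells along with a member, its part in the result was not tested.

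The members were expressed in more of the kept cells than genes in general. Of the 37 members, 17 (45.9%) were at 1 RPM or more in all 4 kept cells, compared with 11.3% of all genes. In at least 1 kept cell, 32 members (86.5%) reached 1 RPM, compared with 44.3% of all genes. The number of members was 22, 31, 22 and 27 in cells 1 to 4 and 32 in cell D. Among all genes the shares at 1 RPM were 23.7%, 34.5%, 17.7% and 35.1% in cells 1 to 4 and 40.7% in cell D, so cell 2 and cell D had the most members while cells 2, 4 and D had the most genes. The 37 members had a median level of 4.52 on the log2 scale as a mean over the kept cells, and all genes had a median of 0.07.

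The roles differed in how steady they were. In all 4 kept cells, 2 of the 12 inducible genes were at 1 RPM or more, as were 5 of the 6 constitutive chaperones, 2 of the 8 early response genes and 8 of the other 11. The SD of the log2 level over the 4 kept cells had a median of 2.10 for inducible genes, 0.95 for constitutive chaperones, 2.47 for early response genes and 1.30 for the others. These medians include every matched member of a role, those at 0 in every kept cell among them. The inducible genes include 4 such genes, Hsp22, Hsp70Ab, Hsp70Ba and Hsp70Bb, whose reads are shared with other genes, so their median is not set in order against that of the early response genes. Among all genes at 1 RPM or more in all 4 kept cells the median SD was 1.36, and it was 1.23 among such members. The roles also differ in level and in how often a gene had 0 reads, and the part of this in the SD was not tested.

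**Figure D1:**
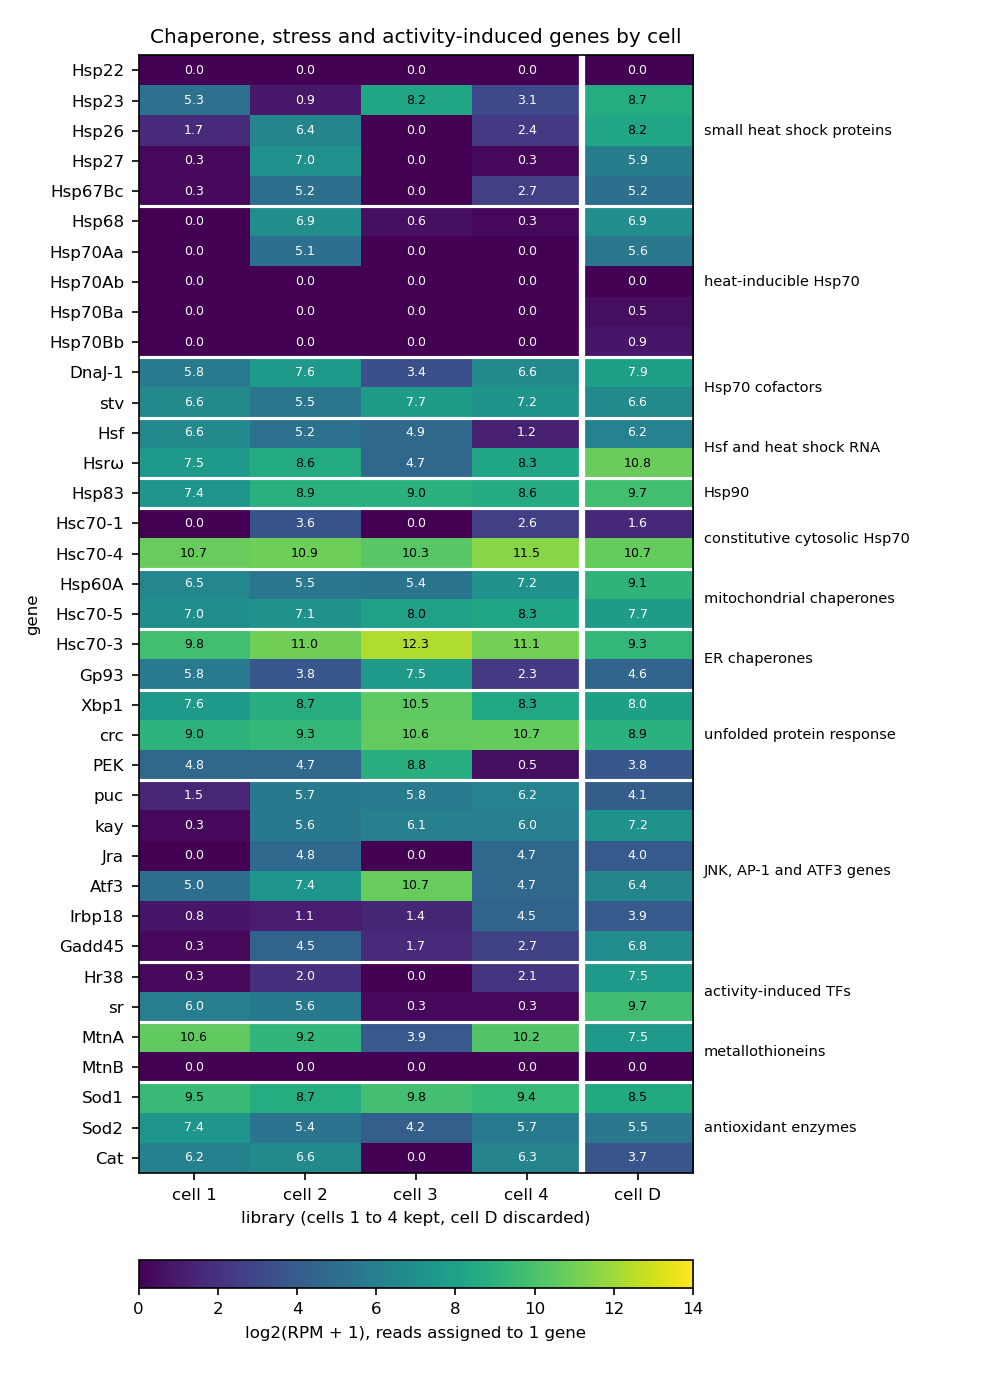
Level of the 37 members as log2(RPM + 1), 1 row per gene and 1 column per library, with cells 1 to 4 left of the white line and cell D right of it. The rows of Hsc70-4 and Hsc70-3 are high in every library, while the small heat shock and heat-inducible Hsp70 rows, apart from Hsp23, are filled mainly in cells 2 and D.

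The small heat shock proteins bind unfolding proteins without using ATP. None of the 5 was expressed in all 4 kept cells, and which of them was present differed from cell to cell. Hsp23 had 37.3, 0.87, 302 and 7.65 RPM in cells 1 to 4 and 412 RPM in cell D. It was therefore high in cells 3 and D and at the level of 3 reads in cell 2, with an interval of 0.18 to 2.54 RPM. Hsp26 had 2.30, 81.1, 0 and 4.28 RPM in cells 1 to 4 and 297 RPM in cell D. Hsp27 had 0.26, 128, 0 and 0.23 RPM in cells 1 to 4 and 59.8 RPM in cell D. Hsp67Bc, whose protein acts in autophagy together with the product of stv, had 0.26, 35.1, 0 and 5.40 RPM in cells 1 to 4 and 34.8 RPM in cell D. The last 3 genes were highest in cell 2 among the kept cells and had 0 reads in cell 3, the cell in which Hsp23 was highest, so these neighbors of the 3L heat shock cluster did not go together. Hsp26 and Hsp23 were higher in cell D than in every kept cell, while Hsp27 was lower in cell D than in cell 2 by reads assigned to 1 gene.

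Hsp22, the mitochondrial small heat shock protein, had 0 reads in all 5 libraries when only reads assigned to 1 gene were counted. This zero came with an overlap in the annotation. Hsp22 (3L, 9372931 to 9374964) lies inside the span of CG4456 (9372722 to 9374964) on the same strand, so that a read on Hsp22 also falls on CG4456. MMQuant, a counter that gives such reads to the group of genes, recorded 0, 314, 491 and 38 reads for the pair in cells 1 to 4 and 1333 reads in cell D. No read could be given to Hsp22 alone, and the pair was present in cells 2, 3, 4 and D. Hsp27 shared 60, 310, 0 and 0 reads with CR43482 in cells 1 to 4 and 582 reads in cell D. In the annotation used for positions, CR43482 was not among the genes that overlap Hsp27. With these reads added the order of Hsp27 turned, at 167 RPM in cell 2 and 174 RPM in cell D.

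The heat-inducible Hsp70 proteins are the classic products of the heat shock response. Hsp68 had 0, 118, 0.49 and 0.23 RPM in cells 1 to 4 and 115 RPM in cell D. Only cells 2 and D held more than 2 reads of it, and their intervals of 107 to 130 RPM and 106 to 125 RPM overlapped. With MMQuant the values were 93.0 RPM in cell 2 and 114 RPM in cell D. Hsp70Aa had 117 reads in cell 2 and none in cells 1, 3 and 4, while cell D had 230 reads, or 33.9 RPM in cell 2 and 46.8 RPM in cell D. Hsp70Ab had 0 reads in every library. Hsp70Ba and Hsp70Bb had 0 reads in the kept cells and 2 and 4 reads in cell D.

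These counts leave out most Hsp70 reads, because the gene exists in 6 nearly identical copies. Hsp70Aa (3R, 11954163 to 11956544, minus strand) and Hsp70Ab (3R, 11958535 to 11960909, plus strand) form a head-to-head pair. Hsp70Ba (12465453 to 12467776), Hsp70Bbb (12502510 to 12504856), Hsp70Bb (12505793 to 12508139) and Hsp70Bc (12509076 to 12511461) lie further along 3R. MMQuant recorded 2, 7095, 3 and 311 reads shared by Hsp70Aa and Hsp70Ab in cells 1 to 4 and 8863 reads in cell D. As RPM over all MMQuant reads, that is 0.42, 1545, 0.66 and 62.2 RPM in cells 1 to 4 and 1705 RPM in cell D. The pair was thus abundant in cells 2 and D, present in cell 4 and near the limit of 3 reads in cells 1 and 3.

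The B copies followed another order. Reads shared among B copies numbered 83, 253, 0 and 1 in cells 1 to 4 and 2063 in cell D. Hsp70Bc, which is not among the 38 genes, had 351, 200, 0 and 58 reads of its own in cells 1 to 4 and 1299 in cell D. Cell 1 therefore held reads of the B copies with almost none of the A copies. With each read counted once, the 6 copies came to 90.2, 1666, 0.66 and 74.6 RPM in cells 1 to 4 and 2375 RPM in cell D. The intervals were 81.8 to 99.1, 1629 to 1703, 0.14 to 1.93 and 67.3 to 82.6 RPM in cells 1 to 4 and 2333 to 2417 RPM in cell D. Shared reads made up 19.9%, 96.1% and 83.6% of these reads in cells 1, 2 and 4 and 88.6% in cell D. All 3 reads of cell 3 were shared.

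The 3′ end of Hsp70Ab adds to this. It overlaps that of CG3281 on the opposite strand by 27 bases, and a uniquely mapped read there is left unassigned when strand is ignored. The strand-aware columns of the STAR tables held 0, 339, 0 and 28 reads of Hsp70Ab in cells 1 to 4 and 462 in cell D, where the unstranded column had 0 throughout. These reads mapped to a single place and were found in the cells that held the A pair, 2, D and 4, but a read of CG3281 that reaches the overlap is counted there too.

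**Figure D2:**
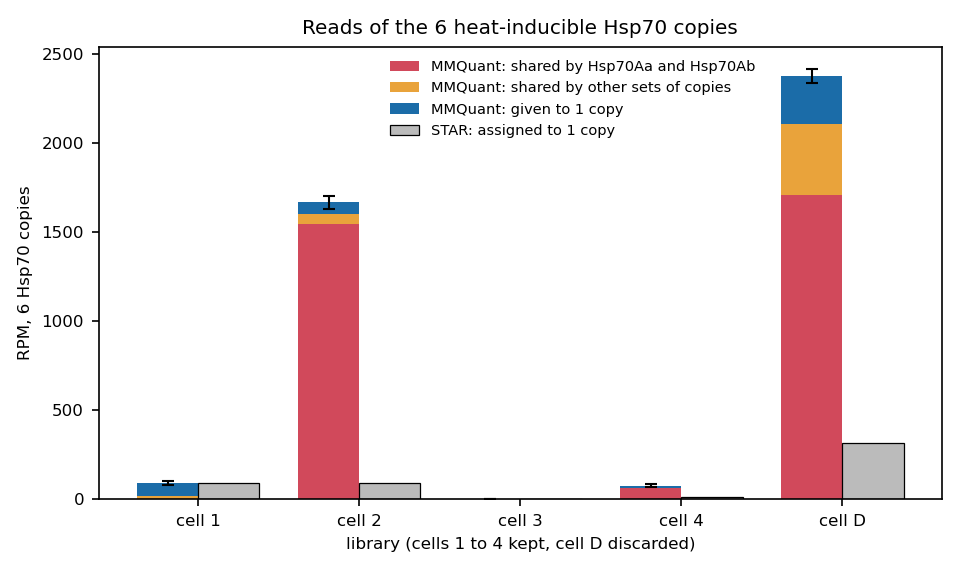
RPM of the 6 heat-inducible Hsp70 copies in each library. Left bars stack MMQuant reads, each counted once, by the copies that share them, with 95% Poisson intervals of the total, and right bars show STAR reads assigned to 1 copy. The MMQuant bars of cells 2 and D reach 1666 and 2375 RPM, while the STAR bars reach 91.8 and 312 RPM.

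DnaJ-1 and stv supply cofactors of Hsp70, a J-domain protein and a BAG-domain protein. They were the 2 inducible genes expressed in all 4 kept cells. DnaJ-1 had 52.9, 193, 9.57 and 95.2 RPM in cells 1 to 4 and 240 RPM in cell D. It was lowest in cell 3 and highest in cell 2 among the kept cells, with a fold of 20.1 between them. In contrast, stv was highest in cell 3 and lowest in cell 2, with 95.3, 44.3, 209 and 149 RPM in cells 1 to 4 and 97.3 RPM in cell D.

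Hsf encodes the transcription factor of the heat shock response, which is present without stress and acts when it forms trimers. Hsf had 95.8, 35.9, 28.0 and 1.35 RPM in cells 1 to 4 and 73.3 RPM in cell D. It was highest in cell 1, where the inducible genes ranged widely, with 0 reads of Hsp68, 9 of Hsp26, 146 of Hsp23, 207 of DnaJ-1 and 373 of stv. The long noncoding RNA Hsromega had 180, 381, 24.3 and 312 RPM in cells 1 to 4 and 1803 RPM in cell D. Cell D lay above every kept cell and cell 3 below the others. Hsp83, the fly Hsp90, is abundant without stress and rises with heat, and was placed on neither side. Hsp83 had 165, 466, 499 and 385 RPM in cells 1 to 4 and 855 RPM in cell D. The fold between the highest and the lowest kept cell was 3.03, against 15.7 for Hsromega and 70.9 for Hsf.

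Among the constitutive chaperones, Hsc70-4 encodes the main cytosolic Hsp70. It had 1711, 1912, 1295 and 2866 RPM in cells 1 to 4 and 1668 RPM in cell D. The kept cells had a mean of 10.87 ± 0.48 on the log2 scale (SD, n = 4), cell D had 10.70, and the kept mean minus cell D was 0.16. Cell D was thus inside the range of the kept cells. Per kilobase of exon, Hsc70-4 ranked 168, 125, 178 and 115 among all genes in cells 1 to 4 and 77 in cell D. Hsc70-1, a second Hsp70 cognate, had 0, 11.3, 0 and 5.18 RPM in cells 1 to 4 and 2.04 RPM in cell D and was the 1 constitutive chaperone missing from some kept cells.

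The mitochondrial chaperones were present in every library. Hsc70-5, the mitochondrial Hsp70, had 126, 138, 259 and 304 RPM in cells 1 to 4 and 210 RPM in cell D, again inside the range of the kept cells. Hsp60A, the chaperonin that folds imported proteins, had 88.4, 43.5, 40.5 and 142 RPM in cells 1 to 4 and 556 RPM in cell D. It was the constitutive chaperone that lay above every kept cell in cell D, with a kept mean of 6.12 ± 0.85 on the log2 scale against 9.12. Hsp60A and Hsc70-5 were both highest in cell 4 among the kept cells.

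The summed RPM of the 12 inducible genes was set against that of the 6 constitutive chaperones in each cell, so that the same genes entered every ratio. The inducible sum was 188, 634, 520 and 262 RPM in cells 1 to 4 and 1303 RPM in cell D. The constitutive sum was 2849, 4112, 6984 and 5448 RPM in cells 1 to 4 and 3071 RPM in cell D. The inducible sum was therefore 6.61%, 15.4%, 7.45% and 4.81% of the constitutive sum in cells 1 to 4 and 42.4% in cell D. On the log2 scale the ratio averaged −3.68 ± 0.71 over the kept cells (SD, n = 4), and it was −1.24 in cell D.

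With MMQuant and shared reads counted once, the inducible sum came to 184, 2208, 574 and 302 RPM in cells 1 to 4 and 3674 RPM in cell D. The constitutive sum came to 2422, 3067, 6750 and 4753 RPM in cells 1 to 4 and 2905 RPM in cell D. The inducible share became 7.58%, 72.0%, 8.50% and 6.35% in cells 1 to 4 and 126% in cell D. Cells 2 and D moved, and cells 1, 3 and 4 stayed under 10%. Of the STAR inducible sum, DnaJ-1 and stv made up 148, 237, 218 and 244 RPM in cells 1 to 4 and 337 RPM in cell D, which was most of it in cells 1 and 4. Without them, in a list chosen after the data were seen, the inducible sum was 40.1, 397, 302 and 17.8 RPM in cells 1 to 4 and 966 RPM in cell D. In cell 3 it then rested almost entirely on Hsp23.

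**Figure D3:**
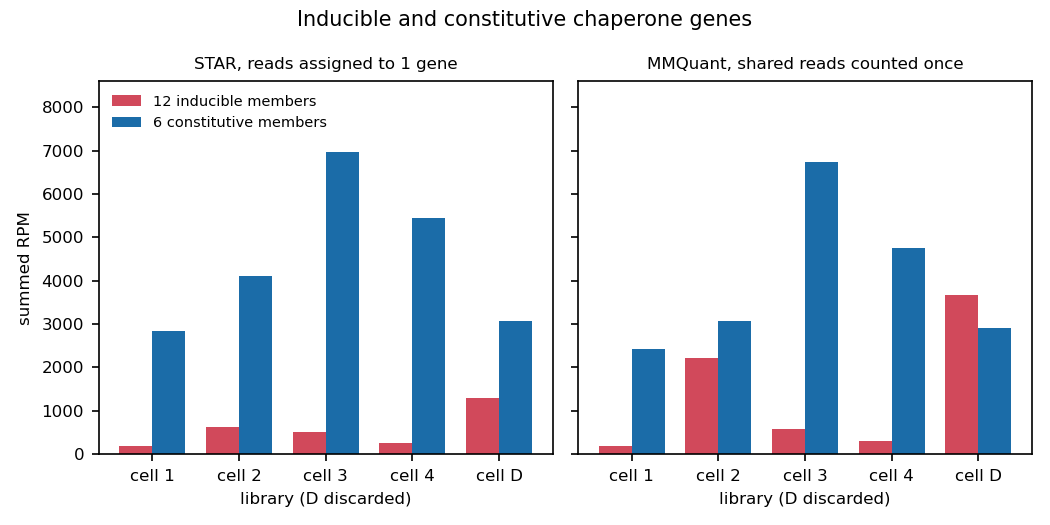
Summed RPM of the 12 inducible members (left bar of each pair) and the 6 constitutive chaperones (right bar) in each library, from STAR reads assigned to 1 gene and from MMQuant with shared reads counted once. The inducible bar is the shorter in every library with STAR counts, and with MMQuant it is 2208 against 3067 RPM in cell 2 and exceeds the constitutive bar in cell D.

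Both ER chaperones were highest in cell 3, the Dh44-rich cell. Hsc70-3, the ER Hsp70 known as BiP, had 870, 1995, 5204 and 2126 RPM in cells 1 to 4 and 612 RPM in cell D. It had the highest mean RPM of all members over the kept cells, 2549, and was below every kept cell in cell D. The kept mean was 11.03 ± 1.05 on the log2 scale against 9.26 in cell D, a difference of 1.77. Per kilobase of exon it ranked 78 among all genes in cell 3 and 360 in cell D. Gp93, the ER Hsp90, had 53.4, 13.0, 185 and 4.05 RPM in cells 1 to 4 and 22.6 RPM in cell D. Gp93 was also highest in cell 3 and differed more between the kept cells than Hsc70-3, with a fold of 45.8 against 5.98.

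The unstranded STAR count held fewer reads of Gp93 than MMQuant in every library. The 3′ end of Gp93 (3R, 27948711 to 27952151) overlaps that of CG4951 on the opposite strand (27952051 to 27954112) by 101 bases. MMQuant gave Gp93 alone 645, 159, 3095 and 107 reads in cells 1 to 4 and 469 in cell D, against 209, 45, 756 and 18 reads from STAR in cells 1 to 4 and 111 in cell D. The order of the cells was the same in both counts.

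Of the regulators of the unfolded protein response, 2 of 3 were also highest in cell 3. Xbp1, whose mRNA is spliced by Ire1 when unfolded proteins collect in the ER, had 193, 427, 1456 and 325 RPM in cells 1 to 4 and 252 RPM in cell D. PEK, listed as PEK1 and the kinase that slows translation under ER stress, had 26.1, 24.6, 451 and 0.45 RPM in cells 1 to 4 and 13.2 RPM in cell D. Both were highest in cell 3, and PEK was represented in cell 4 by 2 reads. The gene crc, the fly ATF4, had 526, 644, 1596 and 1669 RPM in cells 1 to 4 and 485 RPM in cell D. It was high in cells 3 and 4, and cell D was close to cell 1, with intervals of 503 to 549 RPM in cell 1 and 466 to 505 RPM in cell D. With MMQuant crc was higher in cell D than in cell 1, at 407 RPM in cell 1 and 419 RPM in cell D. Gene counts do not distinguish spliced from unspliced Xbp1.

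Cell 3 was also the highest of the kept cells for 7 of the 11 other ER folding and stress genes that were listed, and for 16.6% of all genes expressed in a kept cell. Calr, the ER lectin chaperone calreticulin, had 252, 543, 3579 and 459 RPM in cells 1 to 4 and 211 RPM in cell D. CaBP1, a protein of the disulfide isomerase family, had 1.28, 3.77, 1711 and 4.28 RPM in cells 1 to 4 and 62.9 RPM in cell D. Herp, a component of ER-associated degradation, had 14.6, 68.1, 59.6 and 64.2 RPM in cells 1 to 4 and 48.6 RPM in cell D and was low in cell 1 alone. Ire1, the sensor that splices Xbp1 mRNA, was represented by 2 reads in cell 2 and none elsewhere. The genes of this list did not all share the order, since Herp and, named after their values were seen, GADD34 and Sil1 were highest in another kept cell.

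**Figure D4:**
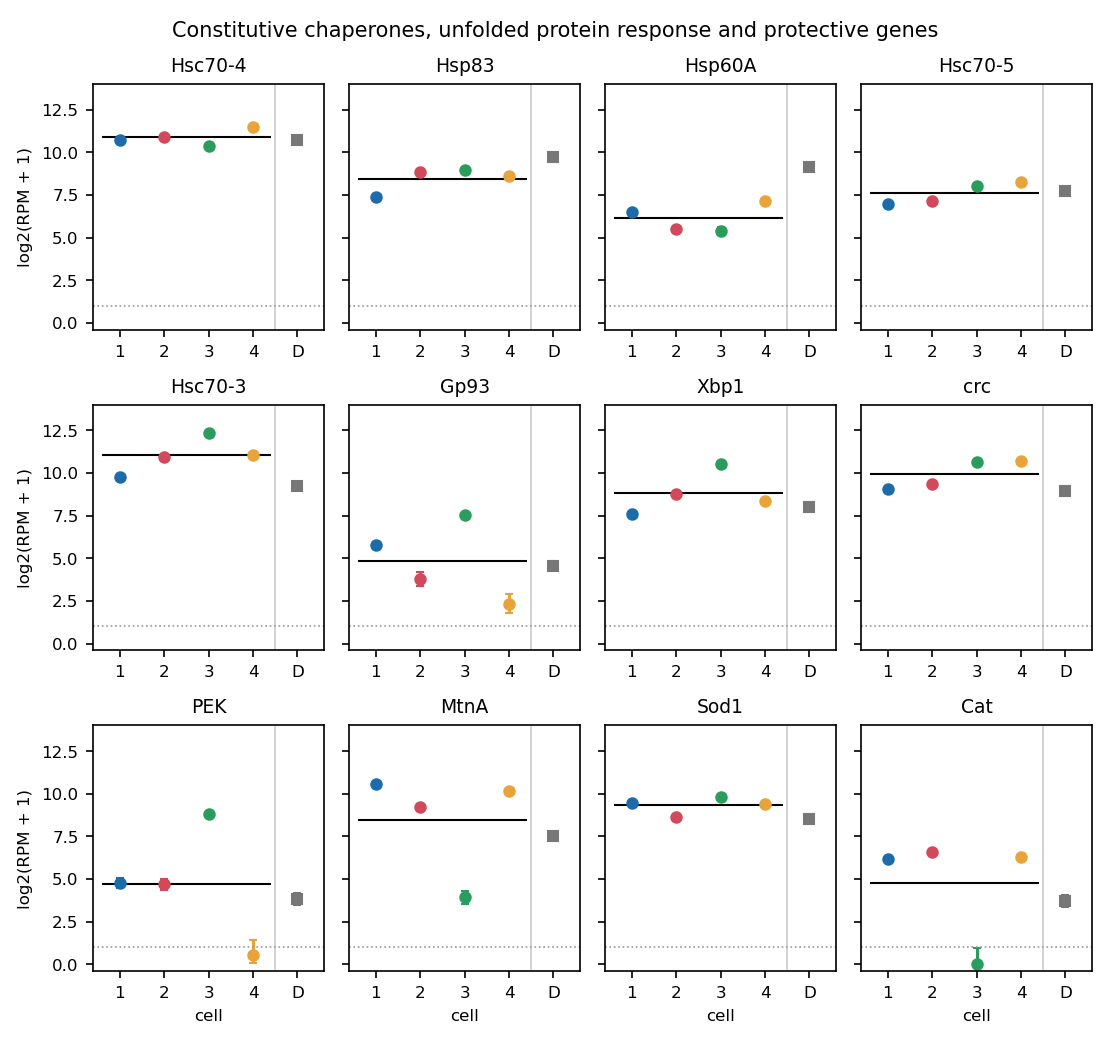
log2(RPM + 1) of 12 members in cells 1 to 4 (circles) and cell D (squares) with 95% Poisson intervals, the mean of the kept cells (horizontal line) and 1 RPM (dotted line). Hsc70-3, Gp93, Xbp1 and PEK are highest in cell 3, MtnA and Cat are lowest there, and Hsp83 and Hsp60A are highest in cell D.

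The early response genes varied between the kept cells by a SD of 1.10 to 3.18 on the log2 scale. Among the JNK genes, puc encodes the phosphatase that JNK induces as its own inhibitor, and kay and Jra encode Fos and Jun, which form AP-1. For puc the level was 1.79, 50.4, 54.2 and 72.9 RPM in cells 1 to 4 and 16.5 RPM in cell D. For kay it was 0.26, 48.7, 67.7 and 63.5 RPM in cells 1 to 4 and 144 RPM in cell D. Both were at similar levels in cells 2, 3 and 4 and near the limit of detection in cell 1, where puc had 7 reads and kay had 1. Jra had 0, 26.1, 0 and 24.8 RPM in cells 1 to 4 and 14.6 RPM in cell D. The 3′ end of Jra overlaps that of RpLP0-like on the opposite strand by 39 bases, and the 2 stranded columns together held 0, 144, 432 and 240 reads in cells 1 to 4 and 154 in cell D. The 0 of cell 3 therefore does not show that Jra was absent there, although reads of RpLP0-like that reach the overlap enter this sum and MMQuant gave Jra 0 reads in cell 3.

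Atf3, a bZIP factor of stress and immune responses, had 31.9, 166, 1711 and 25.2 RPM in cells 1 to 4 and 84.5 RPM in cell D. Cell 3 stood above the rest, and the fold between the highest and the lowest kept cell was 67.8. Irbp18, a bZIP protein that pairs with Xrp1, had 0.77, 1.16, 1.72 and 21.4 RPM in cells 1 to 4 and 14.5 RPM in cell D. Its whole span lies within CG33947 on the opposite strand, so a share of its reads may have been left unassigned. Gadd45, a small stress-induced protein, had 0.26, 21.4, 2.21 and 5.63 RPM in cells 1 to 4 and 108 RPM in cell D. Atf3 was thus highest in cell 3, Irbp18 in cell 4 and Gadd45 in cell D.

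By reads assigned to 1 gene, the members that differed most between cell D and the kept cells were Hr38 and sr, 2 transcription factor genes used in insects as markers of recent neuronal activity. Hr38, a nuclear receptor of the NR4A type, had 1, 10, 0 and 15 reads in cells 1 to 4 and 898 reads in cell D, or 0.26, 2.90, 0 and 3.38 RPM against 183 RPM. The interval of cell D was 171 to 195 RPM, far from the highest upper bound of a kept cell, 5.57 RPM in cell 4. The kept mean minus cell D was −6.42 on the log2 scale. A fly Egr factor, sr, had 61.5, 48.7, 0.25 and 0.23 RPM in cells 1 to 4 and 822 RPM in cell D. Cells 1 and 2 held sr and cells 3 and 4 held 1 read each, and the kept mean minus cell D was −6.63.

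Hr38 (2L, 20683462 to 20714588) overlaps the 3′ end of CG2617 by 168 bases on the opposite strand. MMQuant recorded 92, 0, 0 and 27 reads shared by these genes in cells 1 to 4 and 300 in cell D. With them, Hr38 had 108, 10, 0 and 58 MMQuant reads in cells 1 to 4 and 1409 in cell D. Cell D stayed above every kept cell, while cell 1 moved above 1 RPM. In this count the kept mean minus cell D was −5.61 for Hr38 and −6.53 for sr on the log2 scale, and it was −6.29 for Hsp70Aa and −5.78 for Hsp26.

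**Figure D5:**
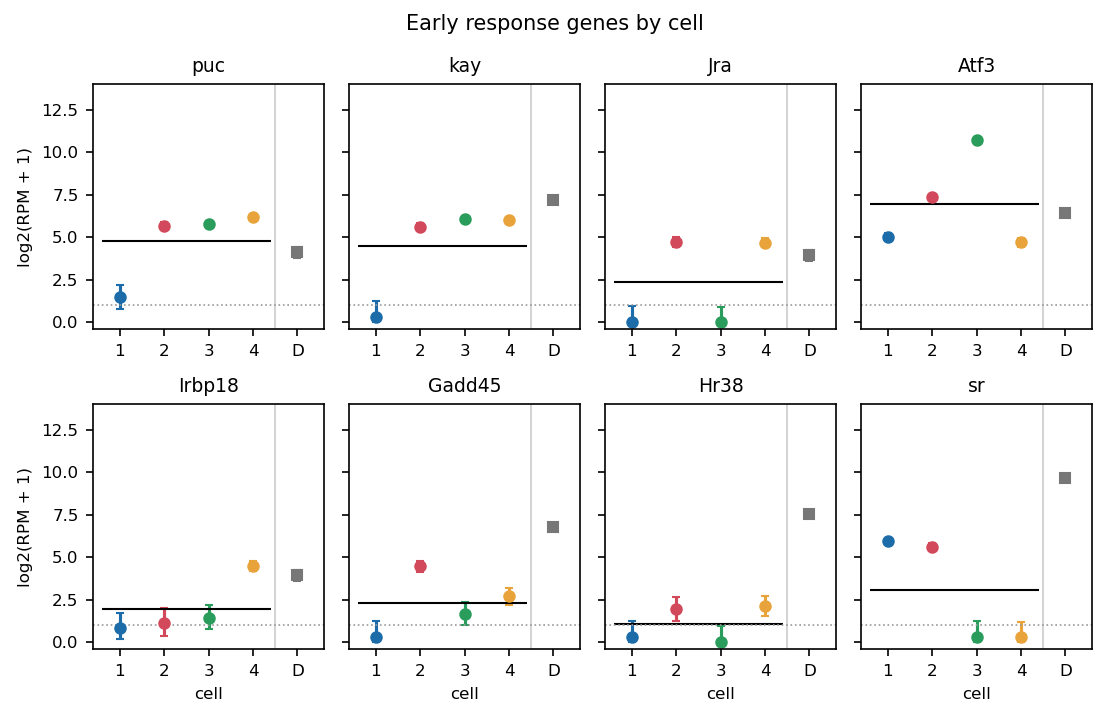
log2(RPM + 1) of the 8 early response genes in cells 1 to 4 (circles) and cell D (squares), with 95% Poisson intervals, the mean of the kept cells (horizontal line) and 1 RPM (dotted line). Hr38 and sr are highest in cell D, at 183 and 822 RPM, Atf3 is highest in cell 3, and puc and kay are lowest in cell 1.

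Cell D was above every kept cell for 11 of the 32 members expressed in at least 1 library (34.4%), and the share among all genes at 1 RPM in at least 1 library was 37.9%. It was below every kept cell for 3 members (9.38%), against 6.57% of all genes. By reads assigned to 1 gene, the members' shares were therefore near those of genes in general. The 11 members were Hsp23, Hsp26, Hsp70Aa, DnaJ-1, Hsromega, Hsp83, Hsp60A, kay, Gadd45, Hr38 and sr, and the 3 were Hsc70-3, crc and Sod1. In the MMQuant count with shared reads all 11 stayed above every kept cell, and Hsp27, Hsp67Bc and Hsp68 were above them as well. So were Hsp22, Hsp70Ab, Hsp70Ba and Hsp70Bb, which are not among the 32 and share their reads with other genes. Hsp67Bc and Hsp68 had no shared reads in any library. The total used as denominator was also larger in this count, at 4591397 instead of 3451331 reads in cell 2. In cell D it was 5198114 instead of 4913151 reads. Of the inducible genes, stv alone was not above every kept cell in the MMQuant count. The share of all genes in that count was not computed, so this is not read as a trait of the inducible genes. Hsp27 was at 167 RPM in cell 2 and 174 RPM in cell D, from 765 and 902 reads. Hsp67Bc was at 26.6 RPM in cell 2 and 34.1 RPM in cell D, from 122 and 177 reads. No intervals were computed for these MMQuant values. Of the 3 below, Hsc70-3 alone stayed so, since crc was then higher in cell D than in cell 1, and Sod1 was at 295 RPM in cell 2 and 331 RPM in cell D. Neither crc nor Sod1 had shared reads, so their change came without them. All 8 matched neuronal markers were above every kept cell in cell D as well.

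The highest kept cell was cell 1 for 4 of the 32 members, cell 2 for 11, cell 3 for 10 and cell 4 for 7, or 12.5%, 34.4%, 31.2% and 21.9%. The shares among all genes were 20.4%, 28.4%, 16.6% and 34.6%. Of the 8 inducible genes expressed in a kept cell, 6 were highest in cell 2, namely Hsp26, Hsp27, Hsp67Bc, Hsp68, Hsp70Aa and DnaJ-1, while Hsp23 and stv were highest in cell 3. In 7 of the 32 members (21.9%), 1 kept cell lay far from the other 3 by Dixon's criterion, compared with 26.4% of all genes.

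Of the protective enzymes, MtnA encodes a copper-binding metallothionein. MtnA had 1531, 592, 14.2 and 1155 RPM in cells 1 to 4 and 181 RPM in cell D. It was low in cell 3, and the fold between the highest and the lowest kept cell was 108. The summed fat body, photoreceptor, glial, and hemocyte and muscle markers were each also lowest in cell 3 among the kept cells. Cell D had still less fat body and photoreceptor RNA than cell 3, but more MtnA, at 181 against 14.2 RPM. Its hemocyte and muscle sum was also lower than that of cell 3, while its glial sum was higher. A link between MtnA and these marker lists was not tested. MtnB had 0 reads in all 5 libraries, as had MtnC, MtnD and MtnE, which were named after their values were seen. Per kilobase of exon, MtnA had the highest mean level of all members over the kept cells, at 1176 RPM per kb, followed by Sod1 at 910, Hsc70-4 at 717 and Hsc70-3 at 710 RPM per kb. The reads come from 3′ ends, so that such values still favor short transcripts.

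Sod1, the cytosolic superoxide dismutase, had 713, 402, 886 and 674 RPM in cells 1 to 4 and 366 RPM in cell D. With a SD of 0.48 on the log2 scale it varied as little between the kept cells as Hsc70-4. Sod2, the mitochondrial enzyme, had 164, 40.0, 17.7 and 51.6 RPM in cells 1 to 4 and 45.4 RPM in cell D. Cat, which encodes catalase, had 70.7, 94.2, 0 and 76.1 RPM in cells 1 to 4 and 12.2 RPM in cell D. Catalase RNA was thus at like levels in cells 1, 2 and 4 and was not detected in cell 3, where the interval reached 0.905 RPM.

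The other genes of these pathways were taken from lists fixed by name, and their counts stand beside the 11.3% of all genes expressed in all 4 kept cells and the 44.3% expressed in at least 1. Of 11 other Hsp70 and small heat shock genes, 2 were expressed in all 4 kept cells and 6 in at least 1, and 4 had 0 reads assigned to 1 gene in all 5 libraries. Of the 4, Hsp67Bb (CG4456) and Hsp70Bbb had the MMQuant reads shared with Hsp22 and with the other B copies that are given above. Hsp67Ba, another gene of the 3L cluster, had 0.26, 2.61, 354 and 21.8 RPM in cells 1 to 4 and 136 RPM in cell D, so that it was high in cell 3 as Hsp23 was. Hsc70Cb, the nucleotide exchange factor Hsp110, had 122, 109, 6.62 and 176 RPM in cells 1 to 4 and 146 RPM in cell D and was low in cell 3. l(2)efl, an alpha-crystallin type small heat shock gene, had 1 read in cell 4 and none elsewhere.

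Of the 11 matched cochaperones of Hsp70 and Hsp90, 7 were expressed in all 4 kept cells and all 11 in at least 1. Droj2, a J-domain protein, had 496, 351, 872 and 437 RPM in cells 1 to 4 and 416 RPM in cell D. Cdc37, which brings kinases to Hsp90, had 292, 6.08, 880 and 22.3 RPM in cells 1 to 4 and 92.0 RPM in cell D. p23 had 287, 321, 64.5 and 290 RPM in cells 1 to 4 and 216 RPM in cell D. Droj2 was steady, Cdc37 was high in cells 1 and 3, and p23 was low in cell 3 alone. All 7 matched subunits of the cytosolic chaperonin were expressed in at least 1 kept cell and 4 of them in all 4. CCT2 had 73.8, 189, 41.7 and 165 RPM in cells 1 to 4 and 216 RPM in cell D, while CCT3 had 0, 24.0, 0 and 144 RPM in cells 1 to 4 and 64.5 RPM in cell D. Among 7 mitochondrial folding genes 1 was expressed in all 4 kept cells. It was Hsp10, the partner of Hsp60A, with 68.4, 29.0, 1.23 and 4.50 RPM in cells 1 to 4 and 72.1 RPM in cell D, and Roe1, a nucleotide exchange factor, had 90, 62, 0 and 230 reads in cells 1 to 4 and 37 reads in cell D.

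All 9 listed JNK signaling genes were expressed in at least 1 kept cell and 2 of them in all 4, and the number at 1 RPM was 4, 8, 4 and 9 in cells 1 to 4 and 8 in cell D. The kinase gene msn had 82.2, 145, 227 and 154 RPM in cells 1 to 4 and 317 RPM in cell D. The kinase gene slpr had 1.53, 99.7, 219 and 163 RPM in cells 1 to 4 and 169 RPM in cell D. Thus slpr was lowest in cell 1, as puc and kay were. The ligand gene egr had 0, 0.58, 0 and 17.1 RPM in cells 1 to 4 and 5.09 RPM in cell D.

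Of 15 other early response and stress-induced genes, 3 were expressed in all 4 kept cells and 11 in at least 1. The injury-induced secreted factor TotA had 1776, 110, 0.74 and 193 RPM in cells 1 to 4 and 78.4 RPM in cell D. It was highest in cell 1, the kept cell with the highest fat body sum, 45336 RPM. Cell 4 had more TotA than cell 2 and a lower fat body sum, at 17865 against 39189 RPM. A link between TotA and fat body RNA was not tested. ImpL2, a secreted insulin-binding protein, had 648, 493, 903 and 487 RPM in cells 1 to 4 and 13.2 RPM in cell D. The transcription factor gene cbt, an early target of stress signals, had 196, 219, 3.19 and 331 RPM in cells 1 to 4 and 288 RPM in cell D. ImpL2 was low in cell D and cbt in cell 3. The other genes of the list named here were chosen after their values were seen. CG14186 had 1, 104, 427 and 79 reads in cells 1 to 4 and 5454 in cell D, and the cell death gene rpr had 0 reads in the kept cells and 133 in cell D. Both were highest in cell D, as were Hr38 and sr. In contrast, hid, also a cell death gene, had 1, 151, 1 and 182 reads in cells 1 to 4 and 2 in cell D. Cell D was above every kept cell for 3 of the 15 listed genes, among them Ets21C with only 2 reads in cell D. The share among all genes at 1 RPM in at least 1 library was 37.9%, a base that leaves out genes such as Ets21C. The cytokine genes upd2 and upd3, which injury induces, had 0 reads in all 5 libraries.

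Of the 8 listed metal response genes, 2 were expressed in all 4 kept cells, namely the ferritin subunits. Fer1HCH had 705, 1035, 1033 and 461 RPM in cells 1 to 4 and 763 RPM in cell D, and Fer2LCH had 853, 747, 1451 and 995 RPM in cells 1 to 4 and 659 RPM in cell D. Of the 16 oxidative stress genes, 10 were expressed in all 4 kept cells, and for 4 of the 16 cell D was below every kept cell. Among all genes at 1 RPM in at least 1 library that share was 6.57%, while the 16 include genes under 1 RPM throughout. GstD1, a glutathione transferase, had 1595, 394, 780 and 767 RPM in cells 1 to 4 and 188 RPM in cell D. Trx-2, a thioredoxin, had 520, 384, 498 and 602 RPM in cells 1 to 4 and 108 RPM in cell D. Both lay below every kept cell in cell D. TrxT, another thioredoxin, had 1 read in cell 2 and none elsewhere.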

How the data were processed

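RNA of 5 single GFP-labeled PI cells was measured, 4 kept and 1 discarded. The authors amplified poly(A) RNA by 3 rounds of antisense RNA synthesis, which biases reads to 3′ ends, made unstranded libraries, trimmed reads with Trim Galore and PRINSEQ and mapped them to dm6 with STAR and the BDGP6 release 87 annotation. The authors deposited raw counts per gene, without regard to strand and by strand, and MMQuant counts in which a read on several genes goes to their group. Reads on overlapping genes, or at several places in the genome, are missing from the STAR counts.

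From these counts, RPM over reads assigned to genes, log2(RPM + 1), the 1 RPM threshold and exact Poisson 95% intervals were computed (Python 3.11.15; scipy 1.17.1; pandas 2.3.3; numpy 2.4.6; plots in matplotlib 3.10.9). The ratio of inducible to constitutive genes is that of summed RPM. Totals of unassigned reads stayed out of the library sizes. MMQuant values took their own totals as the denominator. The MMQuant tables carry library numbers in their headers that differ from the cell numbers in part, and each correlated best across genes with the STAR table of its own cell, with a Pearson r of 0.945 to 0.956 for log2(reads + 1), against at most 0.674 with another cell. Positions and exon lengths were taken from Ensembl release 115. The calculation of intervals was tested on simulated Poisson counts and that of Dixon's ratio on simulated normal values. The members and gene lists were chosen with earlier results of these data known. Named genes were all members, and from each pathway list the 2 with the highest mean RPM in the kept cells and those with 1 kept cell far from the others, except where said. No sequences were printed, since none were in the reference used here.

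The alternatives were another denominator, stranded counts, both MMQuant counts, thinning to 3451331 reads, thresholds of 10 RPM and of 1 read, a pseudocount of 0.1 RPM, RPM per kb, other gene lists, a difference of mean log2 levels, all 5 cells and each kept cell left out.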

Additional observations from a re-analysis of the deposited data

Results flagged for a closer look

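The level of a gene in 1 kept cell was called distant from the other 3 where its gap to the nearest of them, over the range, passed Dixon's 95% limit. For normally distributed values, chance alone gives about 1 such value in 20 groups. That rate need not hold for these levels, many of which are 0, and l(2)efl passed the limit with 1 read. Among all expressed genes 26.4% had such a value here, and this share is not compared with the rate for normal values. In cell 2, the log2(RPM + 1) of Hsp27 was 7.01, that of Hsp68 6.90 and that of Hsp70Aa 5.13, and the summed level of the heat-inducible Hsp70 members was 7.26, each far above the other kept cells by reads assigned to 1 gene. In cell 1, puc was at 1.48 and kay at 0.33, both far below the others. Irbp18 in cell 4 was at 4.48, above the others, and Cat in cell 3 was at 0.0, below them. In the MMQuant count with shared reads, the values of Hsp68, puc, kay and Cat still passed the limit. Those of Hsp27, Hsp70Aa and Irbp18 did not, with gaps of 0.487, 0.457 and 0.697 of the range, and Irbp18 had no shared reads. The 6 Hsp70 copies together were then at 6.51, 10.70, 0.73 and 6.24 in cells 1 to 4. What set these cells apart was not tested.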

How the results depend on the processing

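The log2 ratio of inducible to constitutive genes, −3.68 over the kept cells, was −2.93 with MMQuant shared reads added, −2.93 per kilobase of exon, −2.97 with Hsromega added to the inducible genes and −4.78 as a difference of mean log2 levels. With 2 alternatives chosen after the data were seen, it was −5.58 without DnaJ-1 and stv and −2.79 with MMQuant reads and Hsp70Bbb and Hsp70Bc added. Leaving out each kept cell gave −4.01 to −3.45, and it gave 18 to 20 members in all kept cells and 29 to 32 in at least 1. The number of members in all kept cells was 13 to 23 over the alternatives, with the extremes at thresholds of 10 RPM and of 1 read, and the number in at least 1 was 29 to 36. Of 407 levels of single members, 384 moved by less than the SD over the kept cells. The 407 include the settings that left out 1 kept cell. Leaving out 1 of 4 values cannot shift their mean by a full SD, so those settings could not count as moved. The SD was also wide for many members, so this is a loose limit. With MMQuant shared reads, Hsp22, Hsp70Aa, Hsp70Ab, Hsp70Ba, Hsp70Bb and Hr38 moved by more than the SD. For Hsp22, Hsp70Ab, Hsp70Ba and Hsp70Bb the SD was 0, so any read in a kept cell had to count as moved. No paired analysis was possible because each cell is a library of its own and no groups share replicate numbers. A level under 1 RPM rests on 4 reads or fewer. Each cell is a single library, so differences between cells combine biology, capture and amplification, which cannot be told apart.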
